A study of Danio rerio with 16 samples.

Results

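The genes described here are 7 members of the TNF and interleukin signalling family, out of 25433 annotated features in each matrix. They were the tumour necrosis factor genes tnfa (ENSDARG00000009511) and tnfb (ENSDARG00000013598), the interleukin genes il1b (ENSDARG00000098700), il6 (ENSDARG00000102318) and il10 (ENSDARG00000078147), and the TNF receptor genes tnfrsf1a (ENSDARG00000018569) and tnfrsf1b (ENSDARG00000070165). They were chosen by symbol, and each symbol had 1 identifier and was detected. The set is wider than inflammatory cytokines, since il10 is known as an anti-inflammatory cytokine in mammals and both tnfrsf1a and tnfrsf1b encode receptors. The libraries came from zebrafish embryos of the line Tg(mpx:Dendra2), in which the myeloperoxidase promoter drives a photoconvertible green-to-red protein strongly in neutrophils and weakly in macrophages. The head was photoconverted at 34 and 44 hours post fertilization (hpf), so red cells (KBTRE) are enriched in cells of the rostral blood island (RBI) and green cells (KBTGR) in cells of the caudal hematopoietic tissue (CHT). This reading of KBTRE and KBTGR follows the study's sorting scheme, as the labels do not spell the codes out. The 4 groups were RBI-derived cut, RBI-derived normal, CHT-derived cut and CHT-derived normal cells, where the caudal fin of cut embryos had been transected at 54 hpf and both cut and normal (non-cut) embryos were dissociated 3 hours after the transection. Embryos were pooled, and the 4 entries registered for each group share 1 matrix, so that no group has a replicate. Every interval below is a 95% interval of counting error only, and none of the differences was tested across animals.

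TNF is a secreted or membrane-bound cytokine that signals through tnfrsf1a, which carries a death domain, and tnfrsf1b, which does not, and it activates NF-kappaB in the receiving cell. IL-1 beta is made as an inactive precursor that is cut by an inflammasome caspase, so the transcript alone does not show how much active cytokine is released. In zebrafish larvae, tnfa is used as a marker of inflammatory macrophages at a fin wound, and il10 in mammals restrains cytokine production through il10ra, il10rb and STAT3.

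Cells with at least 1000 UMIs were counted, 1629 and 1196 in the RBI-derived cut and normal libraries and 2925 and 1849 in the CHT-derived cut and normal libraries. A UMI is a molecular tag that stands for 1 captured transcript. Although the labels name the sorted cells neutrophils, they fell into 3 classes by rule, with 230, 44, 1001 and 550 macrophages (lyz under 1% of UMIs and at least 3 UMIs over 6 macrophage genes), 1238, 957, 1172 and 675 neutrophils (lyz at least 1% of UMIs) and 161, 195, 752 and 624 other cells in RBI-derived cut, RBI-derived normal, CHT-derived cut and CHT-derived normal embryos. Of the markers that the rule did not use, 8 macrophage genes summed to between 3197 and 5539 CPM (UMIs scaled to the total of the class in a library) in macrophages and between 2.38 and 265 CPM in neutrophils, while 8 neutrophil genes summed to between 1788 and 2697 CPM in macrophages and between 43006 and 58057 CPM in neutrophils. The CHT-derived cut library stood apart, since 195 of its 1172 neutrophils (16.6%) also carried at least 3 UMIs of the macrophage genes, against 6, 0 and 8 such cells in the RBI-derived cut, RBI-derived normal and CHT-derived normal libraries. The RBI-derived normal library had only 44 macrophages, and in the RBI-derived cut library the other cells carried 8487 CPM of the neutrophil genes. The median depth of a cell was 3479, 4316.5, 4253 and 7673 UMIs in the same order of libraries, and libraries shared between 1 and 9 cell barcodes a pair.

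tnfa was a transcript of macrophages in every library. It reached 97.8 CPM (96 UMIs) in RBI-derived cut macrophages and 57.7 CPM (18 UMIs) in RBI-derived normal macrophages. In CHT-derived cut macrophages it reached 215 CPM (1178 UMIs), and in CHT-derived normal macrophages 53.5 CPM (278 UMIs). Neutrophils of the same libraries held 3.12, 0.865, 13.6 and 1.16 CPM, from 14, 4, 70 and 7 UMIs. The lowest macrophage level thus stood above the highest neutrophil level, and CHT-derived cut macrophages stood above the other macrophages. The macrophage over neutrophil ratio was 31.3-fold in RBI-derived cut (17.8 to 59.5), 66.7-fold in RBI-derived normal (22.0 to 271), 15.8-fold in CHT-derived cut (12.4 to 20.4) and 46.0-fold in CHT-derived normal cells (22.0 to 116). In CHT-derived cut cells the log2 ratio was 4.91 with possible doublets left out and 5.44 with free RNA subtracted, in place of 3.98.

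tnfb, the other zebrafish TNF gene here, was found in both classes at higher levels than tnfa. Macrophages held 757 CPM in RBI-derived cut, 333 CPM in RBI-derived normal, 1047 CPM in CHT-derived cut and 494 CPM in CHT-derived normal cells. Neutrophils held 334, 183, 346 and 117 CPM in the same libraries. Macrophages were higher in all 4 libraries, by 2.27-fold (2.07 to 2.48), 1.82-fold (1.47 to 2.23), 3.03-fold (2.87 to 3.20) and 4.23-fold (3.89 to 4.60). With each cell thinned to 1000 UMIs, which gives every cell the same weight, the log2 ratio in CHT-derived cut cells was 0.93 in place of 1.60. In RBI-derived normal cells it was 0.14 with TMM factors in place of 0.86.

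il1b was the most abundant of the 7 transcripts in both classes. These are counts of 3′ tags, which do not scale with gene length, but other differences between genes in how tags are captured or assigned were not examined. In RBI-derived macrophages il1b reached 2385 CPM in cut and 1064 CPM in normal embryos, and in CHT-derived macrophages 3407 CPM in cut and 1353 CPM in normal embryos. Neutrophils of these libraries held 1394, 1100, 1495 and 785 CPM. Macrophages were higher by 1.71-fold in RBI-derived cut (1.63 to 1.79), by 2.28-fold in CHT-derived cut (2.22 to 2.34) and 1.72-fold in CHT-derived normal cells (1.66 to 1.79), whereas in RBI-derived normal cells the ratio was 0.967 (0.863 to 1.08) and the classes did not differ beyond counting error. The direction of that last ratio depends on the scaling: it was -0.05 on the log2 scale by total UMIs, -0.77 with TMM factors, which are set by the bulk of the genes, and 0.51 as UMIs per cell. The ratios of the other libraries kept their direction with TMM factors but were lower. In RBI-derived cut cells the factors were 1.19 for macrophages and 0.840 for neutrophils, and in CHT-derived normal cells 1.18 and 0.845.

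**Figure D1:**
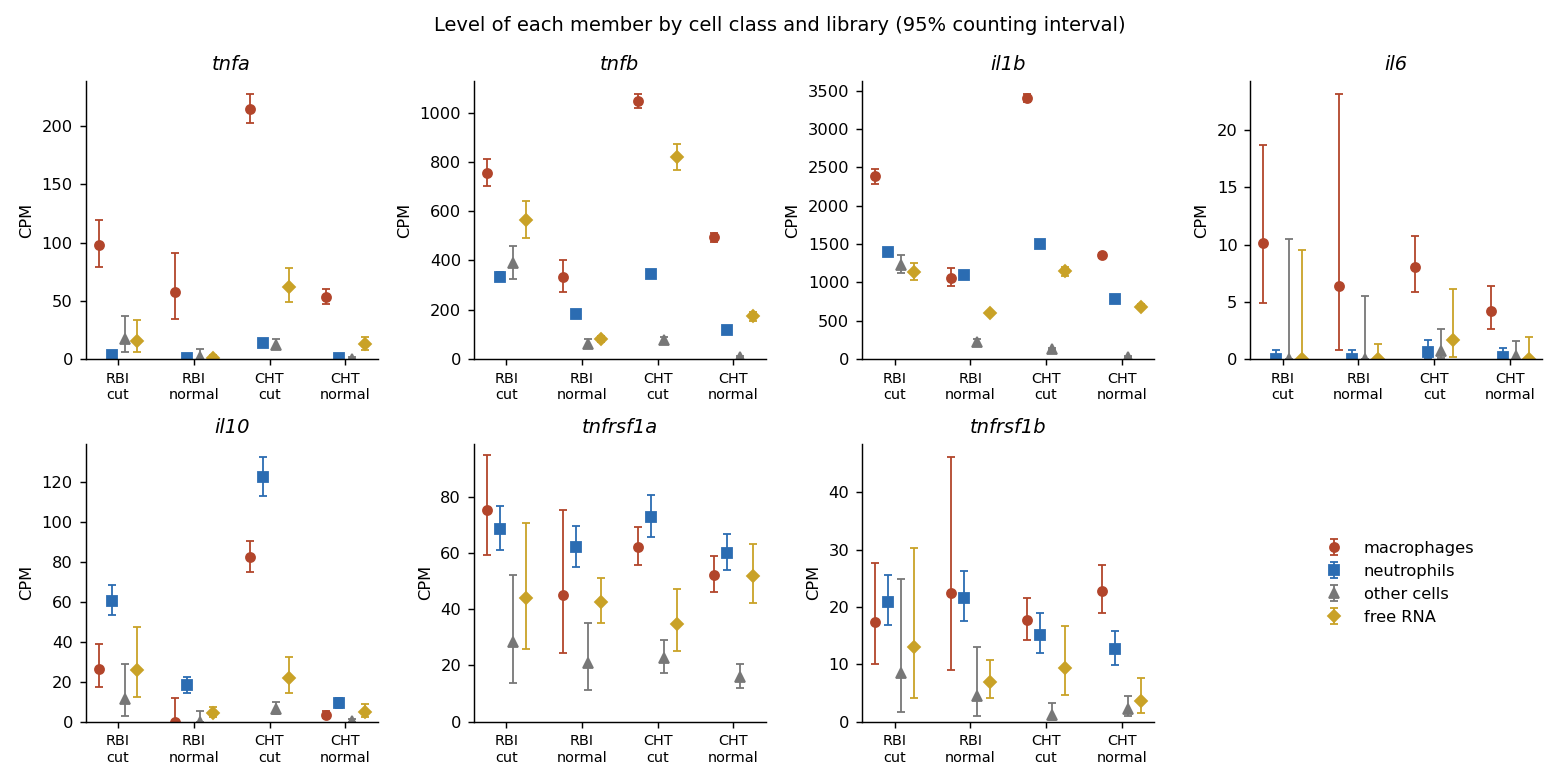
Level of each of the 7 genes in CPM (y axes, linear, each with its own range) in the 4 libraries (x axes), for macrophages, neutrophils, other cells and free RNA (barcodes with 10 to 100 UMIs); points are sums over all cells of 1 library and bars are exact Poisson 95% intervals. Macrophages lie highest for tnfa and tnfb in every library, neutrophils lie above macrophages for il10 in every library, and tnfrsf1a lies between 44.9 and 75.4 CPM in both of these classes.

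il6 was close to the detection limit, with 85 UMIs in all kept cells. Macrophages held 10, 2, 44 and 22 UMIs (10.2, 6.41, 8.02 and 4.23 CPM) in RBI-derived cut, RBI-derived normal, CHT-derived cut and CHT-derived normal libraries. Neutrophils held 0, 0, 3 and 1 UMIs. In RBI-derived cut embryos il6 was at least 15.2-fold higher in macrophages with the neutrophil sum set to a floor of 3 UMIs, and the lower counting limit of the ratio on 10 against 0 UMIs was 10.2-fold, and in CHT-derived cut cells the ratio was 13.8-fold (4.41 to 69.3). In RBI-derived neutrophils, 0 of 1238 cut and 0 of 957 normal cells had a UMI, which by a floor of 3 cells allows shares of cells with an il6 UMI of up to 0.242% and 0.313%, not a limit on cells that express it.

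By CPM, il10 had the opposite class pattern to tnfa. Macrophages held 26.5 CPM (26 UMIs) in RBI-derived cut and 0 UMIs in RBI-derived normal cells, and 82.4 CPM (452 UMIs) in CHT-derived cut and 3.27 CPM (17 UMIs) in CHT-derived normal cells. Neutrophils held 60.6, 18.2, 123 and 9.13 CPM, from 272, 84, 631 and 55 UMIs. Neutrophils were thus higher by CPM in every library. The macrophage over neutrophil ratio was 0.437 in RBI-derived cut (0.280 to 0.654), then 0.672 in CHT-derived cut (0.594 to 0.759) and 0.358 in CHT-derived normal cells (0.195 to 0.626). In RBI-derived normal cells, il10 was at least 1.89-fold lower in macrophages against the floor of 3 UMIs, with an upper counting limit of 0.665 for the ratio. With each cell thinned to 1000 UMIs, the log2 ratio in CHT-derived cut cells was -0.19 in place of -0.57. Thinned values were -1.29 in place of -1.19 in RBI-derived cut and -2.03 in place of -1.48 in CHT-derived normal cells. The last rested on 2 against 10 UMIs.

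Both receptors lay within 2-fold between the classes in CPM. tnfrsf1a held 75.4, 44.9, 62.2 and 52.1 CPM in macrophages and 68.4, 62.1, 72.7 and 60.1 CPM in neutrophils of RBI-derived cut, RBI-derived normal, CHT-derived cut and CHT-derived normal embryos. tnfrsf1b held 17.3, 22.4, 17.7 and 22.9 CPM in macrophages and 20.9, 21.6, 15.2 and 12.6 CPM in neutrophils. Of these 8 ratios, those whose interval left out 1 were tnfrsf1a in CHT-derived cut cells, at 0.855 (0.736 to 0.993), and tnfrsf1b in CHT-derived normal cells, at 1.81 (1.35 to 2.45). The direction of tnfrsf1a in CHT-derived cut cells depended on the scaling, with a log2 ratio of -0.23 in CPM and 0.09 as UMIs per cell. tnfrsf1a was lower among the other cells, at 28.3, 20.9, 22.8 and 15.9 CPM, as was tnfrsf1b at 8.50, 4.49, 1.1 and 2.28 CPM.

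A count of members past 2-fold in CPM was read against all genes with at least 50 UMIs over both sums. In RBI-derived cut cells, tnfa and tnfb of 6 members counted were at least 2-fold higher in macrophages than in neutrophils, beside 18.2% of all genes, and il10 was at least 2-fold lower, beside 14.8%. In RBI-derived normal cells, 0 of 5 members counted were past 2-fold in either direction, beside 20.0% of all genes higher and 18.2% lower. There tnfa, at 66.7-fold on 18 against 4 UMIs, and il6 had fewer than 50 UMIs and were not counted. In CHT-derived cut cells, tnfa, tnfb and il1b of 6 were higher, beside 18.8%, and 0 were lower, beside 10.0%. In CHT-derived normal cells, tnfa and tnfb of 6 were higher, beside 28.0%, and il10 was lower, beside 9.54%. Since the median log2 ratio of all genes moved from 0.18, 0.16, 0.24 and 0.46 by total UMIs to -0.33, -0.56, 0.03 and -0.03 with TMM factors in these 4 libraries, tnfb in RBI-derived cut cells and il1b in CHT-derived cut cells lay within 2-fold by TMM, at 0.68 and 0.98 on the log2 scale.

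Free RNA, read from barcodes with 10 to 100 UMIs, carried tnfb at 563, 80.3, 819 and 173 CPM, il1b at 1136, 597, 1143 and 685 CPM and tnfa at 15.6, 1.09, 62.1 and 12.6 CPM in RBI-derived cut, RBI-derived normal, CHT-derived cut and CHT-derived normal libraries. From 9 erythroid genes, free RNA was estimated as 14.1% of neutrophil UMIs in CHT-derived cut and 4.70% in CHT-derived normal cells, and as 1.71% in RBI-derived cut (without 1 neutrophil that had at least 1% erythroid UMIs, 19.8% with it) and 7.59% in RBI-derived normal cells. At these shares, 8.73 of the 13.6 CPM of tnfa, 115 of the 346 CPM of tnfb, 161 of the 1495 CPM of il1b and 3.11 of the 123 CPM of il10 in CHT-derived cut neutrophils were assigned to free RNA. Neural-marked cells, which should lack these cytokines, held 44.7 CPM of tnfb, 69.9 CPM of il1b, 3.89 CPM of il10 and 1.94 CPM of tnfa in the same CHT-derived cut library, below neutrophils and macrophages for all 4 genes. Their tnfb and il1b levels also lay below the 115 and 161 CPM assigned to free RNA in neutrophils. By the same erythroid genes, the free RNA share of macrophages in this library was 5.23%. Whether the 14.1% share of neutrophils is too high was not tested, and ratios with free RNA subtracted rest on it. In the RBI-derived cut library 39 neural-marked cells held 0 UMIs of tnfb and 1 UMI of il1b. The other cells of the RBI-derived cut library that were not neural-marked held 1489 CPM of il1b and 470 CPM of tnfb, beside 1394 and 334 CPM in its neutrophils.

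The share of cells with a UMI depends on depth, so each cell was also thinned to 1000 UMIs, the minimum that every kept cell had. After thinning, tnfa was seen in 8.26% of RBI-derived cut, 9.09% of RBI-derived normal, 15.3% of CHT-derived cut and 4.00% of CHT-derived normal macrophages, against 21.7%, 15.9%, 38.4% and 20.4% unthinned. In neutrophils tnfa was seen in 0.565%, 0.313%, 2.30% and 0 of 675 cells after thinning (the last allows up to 0.444% by the same floor of 3 cells) and in 0.969%, 0.418%, 4.10% and 0.889% unthinned. Neural-marked cells of the CHT-derived cut library, at a median of 1835 UMIs, had tnfa in 0.439% (0.0111% to 2.42%) after thinning, an interval that overlapped that of its neutrophils (1.52% to 3.33%, median 4105 UMIs), so that tnfa in neutrophils was not told apart from background by this measure.

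**Figure D2:**
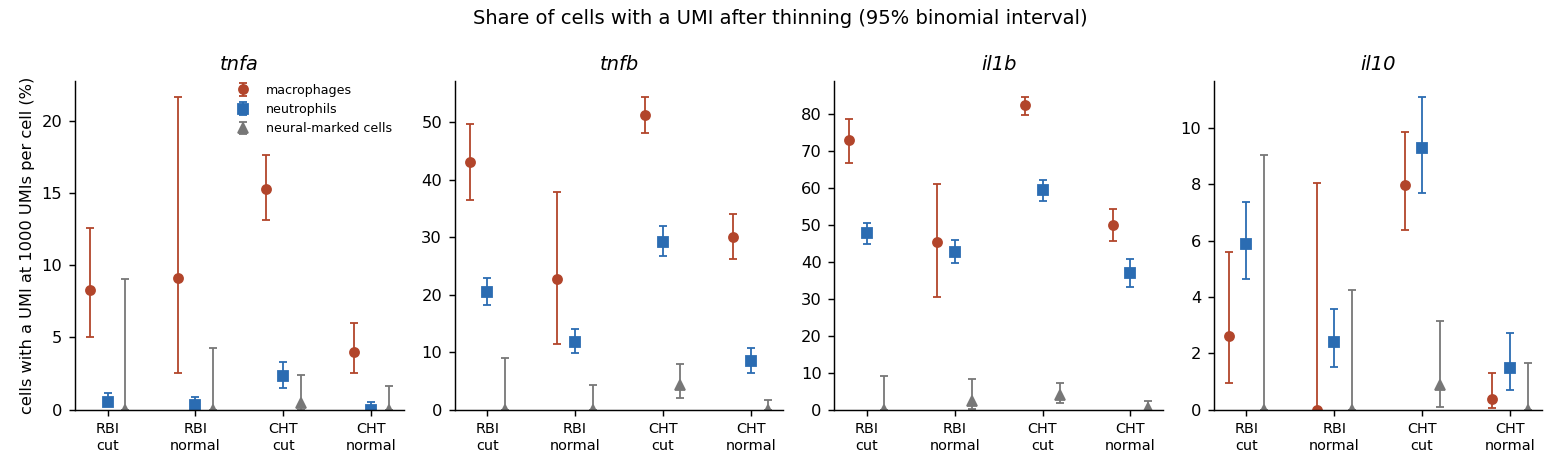
Share of cells with at least 1 UMI of tnfa, tnfb, il1b and il10 (y axes, percent of cells) after thinning each cell to 1000 UMIs, by library (x axes), in macrophages, neutrophils and neural-marked cells; bars are exact binomial 95% intervals. For tnfb and il1b macrophages and neutrophils lie above neural-marked cells in every library, with macrophages at 51.3% and 82.3% in CHT-derived cut embryos.

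tnfb was seen after thinning in 43.0%, 22.7%, 51.3% and 30.0% of macrophages and in 20.5%, 11.8%, 29.3% and 8.44% of neutrophils of RBI-derived cut, RBI-derived normal, CHT-derived cut and CHT-derived normal embryos. Unthinned, these shares were 77.8%, 65.9%, 85.4% and 72.7% of macrophages and 31.2%, 25.3%, 44.6% and 21.5% of neutrophils. Neural-marked cells of the CHT-derived cut library had tnfb in 4.39% after thinning. tnfb was thus seen in a minority of neutrophils in every library, and more of them had it in cut than in normal embryos of both origins. Of the 523 CHT-derived cut neutrophils with tnfb unthinned, 148 were among the 195 that also carried macrophage genes. The remaining 375 were among the other 977 neutrophils. The part of such cells in the shares of neutrophils with tnfb was not tested. il1b was seen after thinning in 73.0%, 45.5%, 82.3% and 50% of macrophages and in 47.7%, 42.7%, 59.4% and 36.9% of neutrophils, beside 3.95% of neural-marked cells of the CHT-derived cut library. Unthinned, il1b was seen in 93.5%, 84.1%, 95.4% and 83.8% of macrophages and in 69.4%, 67.8%, 80.5% and 74.5% of neutrophils. il10 was the rarest of the 4 in macrophages, in 2.61%, 0%, 7.99% and 0.364% after thinning (10.0%, 0%, 27.3% and 2.73% unthinned). The 0% stands for 0 of 44 RBI-derived normal macrophages, with an exact upper limit of 8.04%, so that absence was not shown. In neutrophils il10 was seen in 5.90%, 2.40%, 9.30% and 1.48% after thinning (16.7%, 7.73%, 24.8% and 6.37% unthinned), and in 0.877% of neural-marked cells of the CHT-derived cut library. In that library the interval of neural-marked cells (0.106% to 3.13%) lay below that of neutrophils (7.70% to 11.1%). In the other libraries il10 was seen in 0 of 39, 0 of 85 and 0 of 221 neural-marked cells of RBI-derived cut, RBI-derived normal and CHT-derived normal embryos, with exact upper limits of 9.03%, 4.25% and 1.66% that reach into the intervals of their neutrophils, so that there the share of il10-positive neutrophils was not told apart from background. After thinning, the il10 intervals of macrophages and neutrophils overlapped in every library, with 6.39% to 9.85% for macrophages of the CHT-derived cut library.

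Transcripts of tnfb were concentrated in few neutrophils. The 10% of neutrophils with the most tnfb held 73.4%, 75.9%, 63.2% and 87.4% of its UMIs in the 4 libraries in the same order, with up to 38, 27, 70 and 44 UMIs in 1 cell. The same 10% of macrophages held 35.9%, 47.1%, 35.9% and 47.3% of the tnfb UMIs. il1b was spread more evenly over neutrophils, with 45.7%, 46.8%, 48.6% and 48.7% of its UMIs in the highest 10% of cells. These shares were not thinned and depend on the mean count per cell. Neutrophils held 1.21, 0.886, 1.52 and 1.04 tnfb UMIs and 5.05, 5.31, 6.57 and 7.01 il1b UMIs per cell. Macrophages held 3.23, 2.36, 5.74 and 4.67 tnfb UMIs per cell. The part of the mean count in these contrasts was not tested. In CHT-derived cut embryos, 403 of 1001 macrophages (40.3%) held 20 or more il1b UMIs, against 136 of 550 (24.7%) in CHT-derived normal embryos, although the normal cells were deeper. tnfa in CHT-derived cut macrophages reached 25 UMIs in 1 cell, and 61.6% of those macrophages had none.

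**Figure D3:**
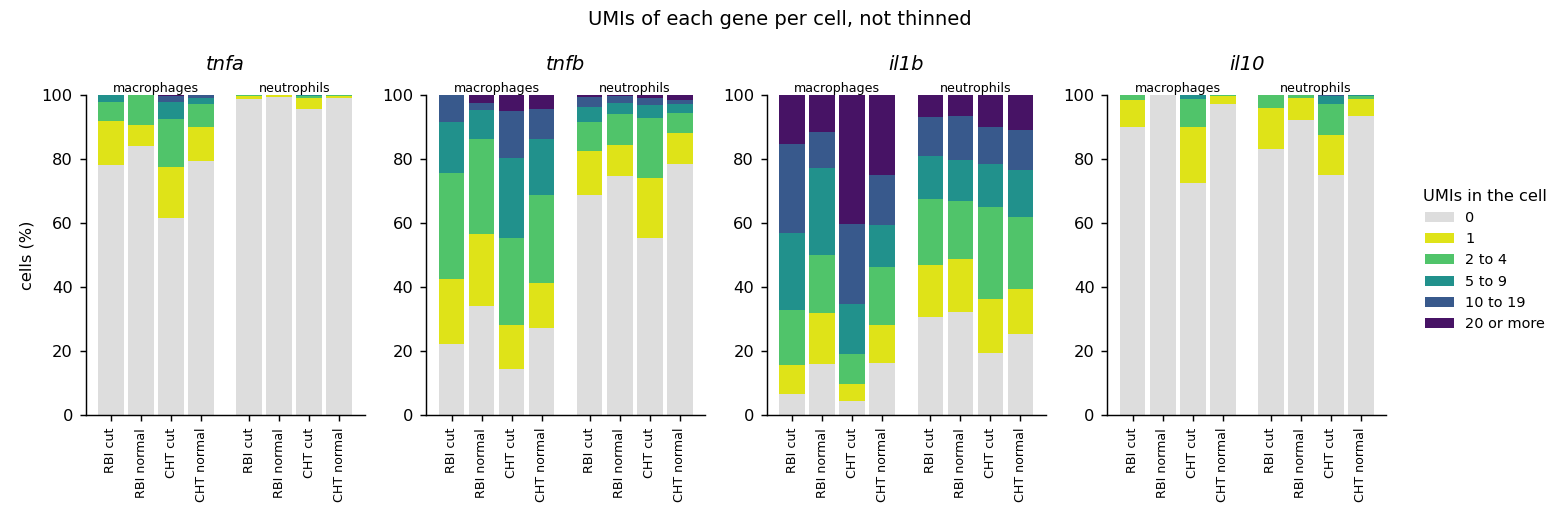
Cells by their number of UMIs of tnfa, tnfb, il1b and il10 (stacked bars, percent of the cells of a class, not thinned) in macrophages and neutrophils of the 4 libraries. The darkest part of the il1b bar, cells with 20 or more UMIs, makes up 40.3% of CHT-derived cut and 24.7% of CHT-derived normal macrophages, while for il10 most cells of every bar had 0 UMIs.

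Transcripts of tnfa, tnfb and il1b tended to be seen in the same CHT-derived macrophages, cut or normal, and those of tnfb and il1b in the same neutrophils. Among thinned CHT-derived cut macrophages, il1b was seen in 149 of 153 cells with tnfa (97.4%) and in 675 of 848 without it (79.6%), and tnfb in 67.3% of cells with tnfa and 48.5% of cells without. Among CHT-derived normal macrophages, il1b was seen in 81.8% of 22 cells with tnfa (59.7% to 94.8%) and 48.7% without it (44.3% to 53.0%). There tnfb was seen in 59.1% of cells with tnfa (36.4% to 79.3%) and 28.8% without it (25.0% to 32.9%). Read the other way, tnfa was seen there in 7.88% of cells with tnfb (4.26% to 13.1%) and 2.34% without it (1.07% to 4.39%), and these intervals overlapped. In RBI-derived macrophages, cut or normal, the intervals of such pairs overlapped, on fewer cells. In the RBI-derived cut library il1b was seen in 94.7% of 19 macrophages with tnfa (74.0% to 99.9%). Without tnfa it was seen in 71.1% of 211 (64.5% to 77.1%), the same order as in CHT-derived cells. Whether the origins differ in these pairs was not tested. In neutrophils, il1b was seen in 83.1% of tnfb-positive and 38.5% of tnfb-negative cells of the RBI-derived cut library, and in 82.8% and 49.7% of such cells of the CHT-derived cut library. Normal neutrophils showed the same order, with 68.1% against 39.3% in RBI-derived and 78.9% against 33.0% in CHT-derived cells. il10 was seen in 10.6% of tnfb-positive (7.12% to 15.1%) and 4.67% of tnfb-negative (3.44% to 6.19%) neutrophils of the RBI-derived cut library, and in 10.2% (7.21% to 13.9%) and 8.93% (7.07% to 11.1%) of such cells of the CHT-derived cut library, where the intervals overlapped. With il1b the order was the same, at 7.46% of il1b-positive and 4.48% of il1b-negative neutrophils of the RBI-derived cut library, with overlapping intervals, and 12.6% and 4.41% of those of the CHT-derived cut library. Cells of 1 library share its free RNA and are not replicates, so these shares are descriptions.

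The next comparison asked how each gene differed in cut embryos from normal embryos of the same origin. In CHT-derived cells tnfa, tnfb, il1b and il10 were higher in CPM after the cut in both classes. il10 differed most, with a level 25.2-fold higher in macrophages (15.6 to 43.6) and 13.4-fold higher in neutrophils (10.2 to 18.0). tnfa was 4.02-fold higher in macrophages (3.52 to 4.59), and il1b 2.52-fold (2.45 to 2.59) and tnfb 2.12-fold (2.02 to 2.22). In CHT-derived neutrophils tnfb was 2.96-fold higher (2.71 to 3.23) and il1b 1.90-fold (1.84 to 1.98). il6 in CHT-derived macrophages was 1.90-fold higher (1.11 to 3.32) on 44 against 22 UMIs, and in neutrophils it had 3 against 1 UMIs, too few for a direction.

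By CPM, RBI-derived cells differed in the same direction, and by less in neutrophils. In RBI-derived macrophages tnfb was 2.27-fold higher in cut embryos (1.85 to 2.82), il1b 2.24-fold (2.00 to 2.52) and tnfa 1.70-fold (1.02 to 2.98). il10 in RBI-derived macrophages was at least 2.76-fold higher in cut embryos, with 26 UMIs in cut and 0 UMIs in normal cells, where the 0 was set to the floor of 3, and the lower counting limit of the ratio was 2.09-fold. In RBI-derived neutrophils il10 was 3.34-fold higher (2.60 to 4.31), tnfb 1.82-fold (1.67 to 1.98) and il1b 1.27-fold (1.22 to 1.32). As UMIs per cell, the log2 ratio of tnfb was 0.45 in RBI-derived and 0.54 in CHT-derived neutrophils, and that of il1b -0.07 and -0.09.

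**Figure D4:**
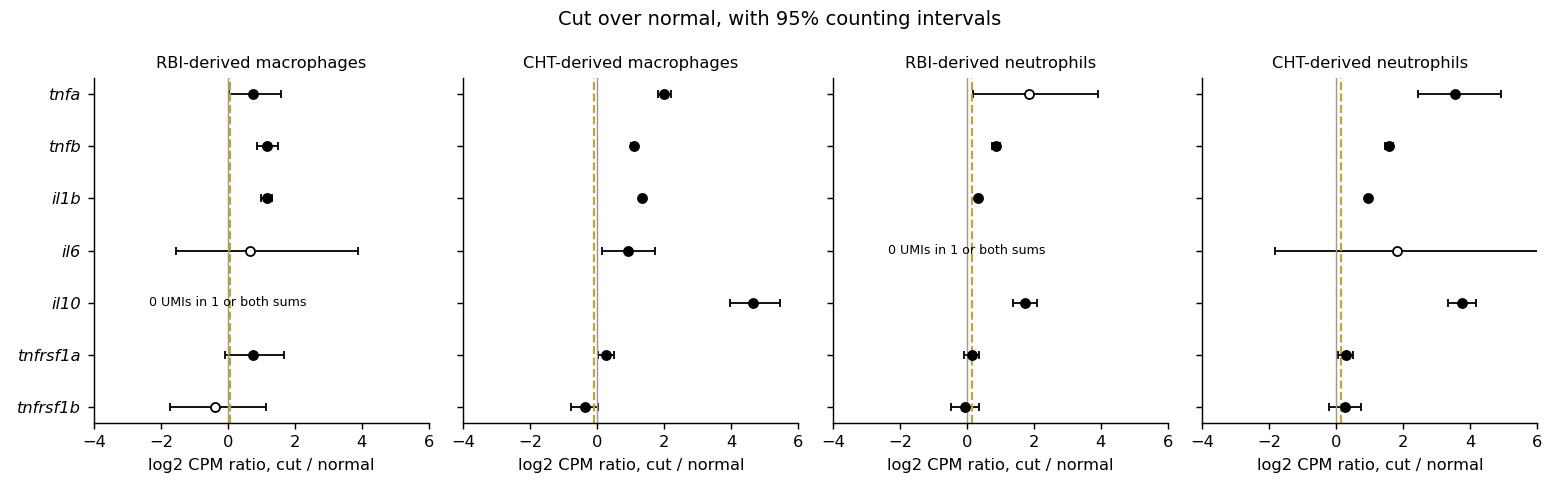
Ratio of cut over normal (x axes, log2 of the CPM ratio) for each of the 7 genes in RBI-derived and CHT-derived macrophages and neutrophils; bars are 95% counting intervals, open circles mark fewer than 50 UMIs over both sums, and the dashed line is the median of all genes counted. In CHT-derived cells il10 lies at 4.65 in macrophages and 3.75 in neutrophils, while every tnfrsf1a and tnfrsf1b point lies within 1 of zero.

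The receptors lay within 2-fold in CPM in these comparisons. tnfrsf1a was 1.19-fold higher in CHT-derived cut than normal macrophages (1.01 to 1.40) and 1.21-fold in CHT-derived neutrophils (1.04 to 1.40), and its intervals in RBI-derived macrophages (0.941 to 3.22) and neutrophils (0.935 to 1.3) included 1. tnfrsf1b had ratios of 0.772 in both RBI-derived (0.304 to 2.20) and CHT-derived macrophages (0.585 to 1.02), and of 0.968 (0.723 to 1.3) and 1.2 (0.865 to 1.67) in RBI-derived and CHT-derived neutrophils, all with intervals that included 1. As UMIs per cell, the log2 ratio in CHT-derived macrophages and neutrophils was -0.53 and -0.75 for tnfrsf1a, which turned its direction, and -1.16 and -0.76 for tnfrsf1b.

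Read against all genes, tnfb and il1b of 4 members counted were at least 2-fold higher in RBI-derived cut macrophages, beside 5.83% of genes, and 0 were lower, beside 1.45%. In CHT-derived macrophages tnfa, tnfb, il1b and il10 of 7 were higher, beside 4.11%, and 0 were lower, beside 4.94%. In RBI-derived neutrophils il10 of 5 was higher, beside 3.53%, and 0 were lower, beside 1.37%. In CHT-derived neutrophils tnfa, tnfb and il10 of 6 were higher, beside 7.34%, and 0 were lower, beside 1.77%. The median log2 ratio of the members counted was 0.96 in RBI-derived macrophages, 1.08 in CHT-derived macrophages, 0.34 in RBI-derived neutrophils and 1.25 in CHT-derived neutrophils, beside 0.07, -0.10, 0.14 and 0.14 over all genes.

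Cut cells held fewer UMIs than normal cells, with medians of 4168.5 against 6862 in RBI-derived macrophages, 5349 against 9264 in CHT-derived macrophages, 3532.5 against 4869 in RBI-derived neutrophils and 4105 against 8900 in CHT-derived neutrophils. Without scaling, as UMIs per cell, the median log2 ratio of all genes was -0.67, -0.89, -0.27 and -0.88, and il1b was at 0.43, 0.55, -0.07 and -0.09 in the same order of classes, so that its direction in neutrophils depends on the scaling. On this scale tnfb was at 0.45, 0.30, 0.45 and 0.54, tnfa in RBI-derived macrophages at 0.03 and il6 in CHT-derived macrophages at 0.14. il10 and tnfa in CHT-derived cells stayed higher per cell, at 3.87 and 1.22 in macrophages and 2.72 and 2.53 in neutrophils. The value of tnfa in neutrophils rested on 70 against 7 UMIs, and the part of free RNA in it was not tested. A list of 28 dissociation and stress genes moved in part with the cytokines, with a median log2 ratio of cut over normal of 0.44 in RBI-derived macrophages (22 genes counted), 0.31 in CHT-derived macrophages (28), -0.07 in RBI-derived neutrophils (26) and 0.44 in CHT-derived neutrophils (27). For macrophages over neutrophils its median was 0.82 in RBI-derived cut, 0.44 in RBI-derived normal, 1.18 in CHT-derived cut and 1.15 in CHT-derived normal cells. For RBI-derived over CHT-derived cells it was -0.37 in both cut and normal macrophages, -0.06 in cut neutrophils and 0.43 in normal neutrophils. The part of stress or depth in these differences was not tested.

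The 11.7-fold higher tnfa in CHT-derived cut than normal neutrophils (5.39 to 30.2) rested on 70 against 7 UMIs. Of those 70 UMIs, 38 came from the 195 neutrophils that also carried macrophage genes, at 79.6 CPM against 6.85 CPM in the other 977. tnfb was also higher in them, at 945 against 284 CPM, whereas il10 was lower, at 90.1 against 126 CPM. il1b was slightly higher in them, at 1713 CPM (1598 to 1835) against 1473 CPM (1438 to 1508). Leaving out such cells and very deep cells gave log2 ratios of cut over normal in CHT-derived neutrophils of 2.59 for tnfa, 1.39 for tnfb, 0.92 for il1b and 3.8 for il10, in place of 3.55, 1.56, 0.93 and 3.75. With free RNA subtracted, tnfb was at 1.08, and il10 stayed at 3.75. Among the 977 neutrophils with under 3 macrophage gene UMIs, tnfa lay at 6.85 CPM. That was below the 8.73 CPM assigned to free RNA over all CHT-derived cut neutrophils. The part of free RNA in the tnfa ratio was not tested.

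The difference between the responses of the 2 origins is the RBI-derived minus the CHT-derived log2 ratio of cut over normal. In neutrophils it was -2.01 for il10 (-2.54 to -1.48), -0.70 for tnfb (-0.87 to -0.52) and -0.59 for il1b (-0.66 to -0.51), so by CPM these 3 genes differed less between cut and normal in RBI-derived neutrophils, beyond counting error. As UMIs per cell the difference was -1.40 for il10, but -0.09 for tnfb and 0.02 for il1b, so that for tnfb and il1b it depends on the scaling. In macrophages it was -1.24 for tnfa (-1.99 to -0.49), while for tnfb (0.10, -0.20 to 0.40) and il1b (-0.17, -0.34 to 0.00361) the intervals included 0. The tnfa value rested on 18 UMIs in 7 of 44 RBI-derived normal macrophages, and the spread between cells is not in its interval. For tnfrsf1a the difference was 0.50 in macrophages (-0.36 to 1.35) and -0.13 in neutrophils (-0.45 to 0.18). With 1 library in each group, the difference between animals and between libraries cannot be told apart from the difference between origins.

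The last comparison set RBI-derived against CHT-derived cells of the same condition. After the cut, RBI-derived macrophages held less tnfa (0.455 of the CHT-derived level, 0.366 to 0.561), il10 (0.321, 0.208 to 0.477), il1b (0.700, 0.670 to 0.731) and tnfb (0.722, 0.668 to 0.780). Of 7 members counted, tnfa and il10 were at least 2-fold lower, beside 4.47% of genes, and 0 were higher, beside 1.33%. In normal embryos, tnfb (0.675, 0.549 to 0.821) and il1b (0.786, 0.702 to 0.877) were lower in RBI-derived macrophages too, while tnfa (1.08, 0.630 to 1.74) did not differ beyond counting error. There 0 of 5 members were past 2-fold, beside 11.8% of genes lower and 1.81% higher.

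**Figure D5:**
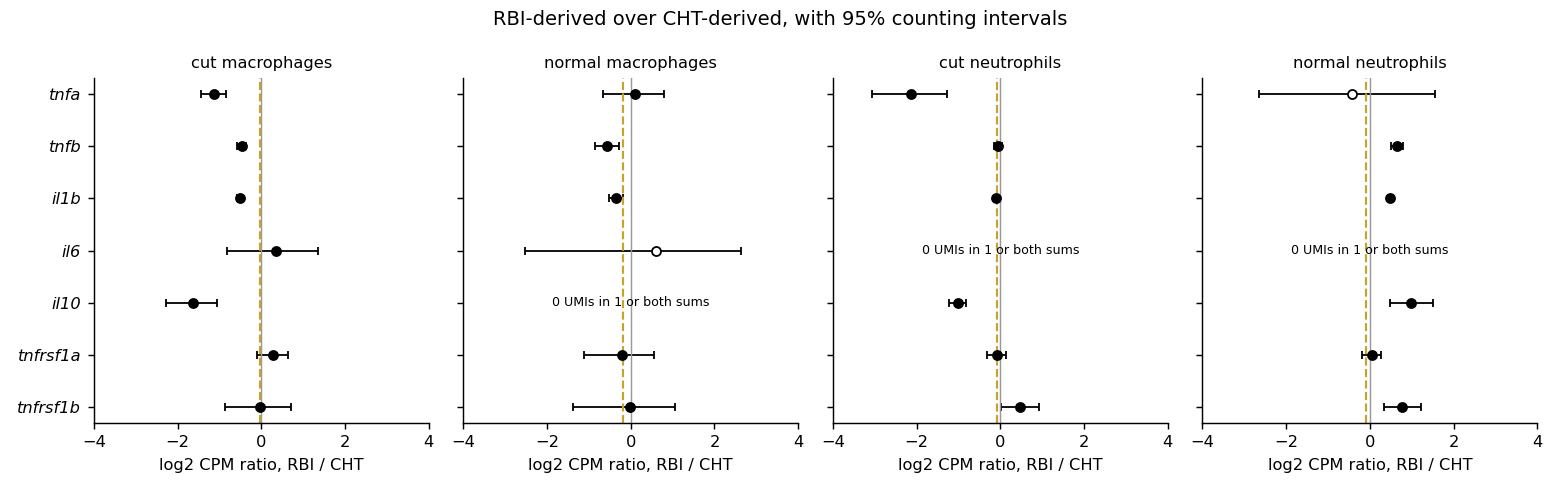
Levels in RBI-derived relative to CHT-derived cells (x axes, log2 of the CPM ratio) for each of the 7 genes in macrophages and neutrophils of cut and normal embryos; bars are 95% counting intervals, open circles mark fewer than 50 UMIs over both sums, and the dashed line is the median of all genes counted. In neutrophils il10 lies at -1.02 in cut and 0.99 in normal embryos.

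In neutrophils il10 differed between origins in opposite directions in cut and normal embryos. In cut embryos il10 was lower in RBI-derived neutrophils (0.494, 0.427 to 0.571), tnfa was lower (0.229, 0.119 to 0.411, on 14 against 70 UMIs), il1b was slightly lower (0.932, 0.901 to 0.964, but at 0.06 on the log2 scale with TMM factors) and tnfb did not differ beyond counting error (0.966, 0.901 to 1.04). Among neutrophils with under 3 macrophage gene UMIs, tnfb was at 334 CPM (317 to 351) in RBI-derived and 284 CPM (269 to 300) in CHT-derived cut cells, so that its ratio depends on the neutrophils that also carried macrophage genes. The ratio of tnfa was at -0.77 on the log2 scale, within 2-fold, with free RNA subtracted at the share found without erythroid-rich cells, in place of -2.12. In normal embryos il10 was 1.99-fold higher in RBI-derived neutrophils (1.40 to 2.85), tnfb 1.57-fold (1.42 to 1.74), il1b 1.40-fold (1.35 to 1.46) and tnfrsf1b 1.71-fold (1.26 to 2.34). Of 6 members counted in cut neutrophils, tnfa and il10 were at least 2-fold lower, beside 7.76% of genes, and 0 were higher, beside 1.88%. In normal neutrophils 0 of 5 were past 2-fold, beside 1.75% of genes higher and 3.53% lower. il10 in cut neutrophils lay at the threshold, at -0.86 with TMM factors, and as UMIs per cell il1b and tnfb in normal neutrophils were at -0.40 and -0.24, where normal neutrophils had medians of 4869 UMIs in RBI-derived and 8900 UMIs in CHT-derived cells. The direction of tnfrsf1b also depends on the scaling, with 0.104 UMIs per cell in RBI-derived and 0.113 in CHT-derived normal neutrophils.

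Of a list of 72 further genes of these pathways, 63 were annotated, and 20 to 44 had enough UMIs for a ratio of cut over normal. In CHT-derived neutrophils 9 of 41 (22.0%, beside 7.34% of all genes) were at least 2-fold higher and 0 lower (beside 1.77%), among them nfkbiaa, which encodes an inhibitor of NF-kappaB and is itself one of its targets (231 CPM in cut and 47.3 CPM in normal cells, log2 ratio 2.29), nfkbiz, an atypical inhibitor of the family (1.76), tnip1, a partner of tnfaip3 (1.58), and il10ra, the ligand-binding IL-10 receptor chain (2.40). Of these named genes, nfkbiaa, tnip1 and il10ra were also higher in macrophages than in neutrophils of the CHT-derived cut library. Their log2 ratios there were 1.84, 2.08 and 2.66, while nfkbiz was not past 2-fold. The count of 9 was not repeated without the 195 neutrophils of that library that also carried macrophage genes. The part of such cells or of free RNA in this count was not tested. In CHT-derived macrophages 6 of 44 (13.6%, beside 4.11%) were higher and 3 (6.82%, beside 4.94%) lower. The highest were nfkbiz (2.11), traf3, an adaptor of TNF receptors (1.36), the cytokine gene il11b (1.36) and tnip1 (1.19), and those lower were tnfsf12 (-2.68), tnfrsf21 (-2.02) and tnfaip2b (-1.18). In RBI-derived macrophages 6 of 20 (beside 5.83% of all genes) were higher and 1 lower (beside 1.45%), led by il10ra (1.66), the kinase gene tyk2 (1.46), the cytokine signalling inhibitor socs1a (1.45) and tnfaip3, an inhibitor of NF-kappaB signalling (1.22), and pycard, an inflammasome adaptor, was lower (-1.09). In RBI-derived neutrophils 3 of 38 (7.89%, beside 3.53%) were higher and 0 lower (beside 1.37%), the 3 being nfkbiaa (1.26), birc2, which encodes a ubiquitin ligase of the TNF receptor complex (1.03), and il10ra (1.02). With TMM factors the counts higher were 6 in CHT-derived neutrophils, 8 in CHT-derived macrophages, 6 in RBI-derived macrophages and 1 in RBI-derived neutrophils. The counts lower were 1, 3, 0 and 0 in the same order. With these factors ptgs2b was at -1.05 in CHT-derived neutrophils, and pycard, at -0.996 in RBI-derived macrophages, was within 2-fold. il10ra was past 2-fold by CPM in all 4 comparisons, though its log2 ratio in RBI-derived neutrophils was 0.87 with TMM factors. Its level was 142 against 44.9 CPM in RBI-derived and 172 against 82.3 CPM in CHT-derived macrophages, and 12.7 against 6.27 CPM and 27.2 against 5.15 CPM in RBI-derived and CHT-derived neutrophils of cut against normal embryos.

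Between classes, il10ra also stood with macrophages, at 142 against 12.7 CPM in neutrophils of RBI-derived cut and 172 against 27.2 CPM in CHT-derived cut embryos, by CPM in the opposite order to il10 itself. The IL-6 receptor gene il6r was a neutrophil transcript, at 282 CPM in macrophages and 1793 CPM in neutrophils of RBI-derived cut embryos and at 291 and 1425 CPM in CHT-derived cut embryos, while the few il6 UMIs were in macrophages. Over the list, 8, 6, 9 and 15 genes were at least 2-fold higher in macrophages than in neutrophils and 7, 5, 3 and 5 lower, of 32, 31, 42 and 45 counted in RBI-derived cut, RBI-derived normal, CHT-derived cut and CHT-derived normal cells. The shares higher were 25%, 19.4%, 21.4% and 33.3%, near the 18.2%, 20.0%, 18.8% and 28.0% of all genes, and the shares lower were 21.9%, 16.1%, 7.14% and 11.1%, beside 14.8%, 18.2%, 10.0% and 9.54%. With TMM factors 7, 3, 8 and 11 list genes were higher and 7, 11, 4 and 8 lower. The balance in RBI-derived normal cells thus depends on the scaling. Between origins, 0 of 37 and 0 of 35 list genes were at least 2-fold higher in RBI-derived cut and normal macrophages (beside 1.33% and 1.81% of all genes) and 3 in each were lower (8.11% and 8.57%, beside 4.47% and 11.8%). In neutrophils 3 of 39 (7.69%, beside 7.76%) were lower in RBI-derived cut cells, and 0 with TMM factors, and 2 of 39 (5.13%, beside 1.75%), tnfaip3 (1.68) and traf3 (1.32), were higher in RBI-derived normal cells.

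The genes most like each member were sought by Pearson's r of log2(CPM + 1) over 12 sums, 3 classes in 4 libraries, among 5382 genes with at least 500 UMIs. The 12 sums share libraries and are not independent. For tnfa they were igflr1 (0.97), ms4a17a.8 (0.97) and hamp, the hepcidin gene (0.96). For tnfb they were gpr84, which encodes a fatty acid receptor in mammals (0.99), plekhf1 (0.98) and rgs2, a regulator of G protein signalling (0.97), and for il1b ssuh2.3 (0.99), si:ch73-90p23.1 (0.98) and again rgs2 (0.98). For il10 the likeness was lower, with pet100 (0.93), CU571384.1 (0.92) and si:ch211-213a13.1 (0.90). tnfrsf1a was most like cd164 (0.98), lpcat2 (0.97) and CU019662.1 (0.97), and tnfrsf1b most like bcl10 (0.98), cyfip1 (0.98) and alox5a, a lipoxygenase (0.98).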

How the data were processed

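Cells were sorted by colour after dissociation of whole embryos and run on a droplet 3′ platform. The authors deposited raw UMI counts per feature and barcode, 1 matrix for each of the 4 groups, made with Cell Ranger 7.1.0 per the file headers, and the submitters' processing notes name GRCz11 and Seurat. Cells had at least 1000 UMIs, 300 to 7500 genes and at most 10% mitochondrial UMIs. Doublets were not called, and possible ones were left out only in an alternative. UMIs were summed per class and library and scaled to CPM. Intervals are exact Poisson for CPM, Clopper-Pearson for shares, conditional binomial for ratios and normal for differences of log2 ratios. A side with 0 UMIs was set to 3. With 1 library a group, no p-value is given. The arithmetic was checked on simulated counts. Tools were Python 3.11.15, numpy 2.4.6, scipy 1.17.1, and edgeR 4.0.16 for TMM factors only.

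Members and lists were chosen with earlier results of these data known. Named genes are the members, the 3 genes most like each by r, and list genes past 2-fold with at most the 4 largest ratios each way. Neural-marked cells are other cells with at least 3 UMIs of elavl3, elavl4 and stmn1b. The alternatives changed scaling, depth, cell filters, class rules, doublets, free RNA and the minimum of UMIs, and 4 were added after seeing the data, of which 2 leave out cells with at least 1% erythroid UMIs, 1 applies TMM factors to the pathway list and 1 gives response differences as UMIs per cell. No sequence is shown, as no sequence table was used here.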

Additional observations from a re-analysis of the deposited data

Results flagged for a closer look

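In 4 cases a gene differed between RBI-derived and CHT-derived cells in opposite directions in 2 groups, with both counting intervals on their own side of 0. The difference between the groups was not tested, as each group is 1 library. Among neutrophils, the log2 level of il10 in RBI-derived relative to CHT-derived cells was -1.02 (-1.23 to -0.81) in cut and 0.99 (0.48 to 1.51) in normal embryos, and that of il1b was -0.10 (-0.15 to -0.05) in cut and 0.49 (0.43 to 0.54) in normal embryos. In normal embryos, the ratio of tnfb was -0.57 (-0.86 to -0.28) in macrophages, with 44 RBI-derived cells, and 0.65 (0.50 to 0.80) in neutrophils, and that of il1b was -0.35 (-0.51 to -0.19) in macrophages and 0.49 in neutrophils. As UMIs per cell, the values in normal neutrophils were 0.11 for il10, -0.24 for tnfb and -0.40 for il1b, and with TMM factors il1b in cut neutrophils was at 0.06, so that the opposite directions of tnfb and il1b turn with the scaling, and that of il10 rests on a value near 0 in normal neutrophils as UMIs per cell. The median of the stress list also had opposite signs in normal embryos, at -0.37 in macrophages and 0.43 in neutrophils. In cut neutrophils it was -0.06. The part of stress in these 4 cases was not tested.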

How the results depend on the processing

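Of 384 counts of members past 2-fold under 16 alternatives, 351 were within 1.5 times the reported count and 33 were not. Of 999 member ratios under alternatives, 820 lay inside the reported interval and 179 outside, and none of those reported past 2-fold changed sign. Ratios with 0 UMIs on a side under an alternative were left out of these counts. Among them was tnfa in CHT-derived cut over normal neutrophils when thinned, with 0 UMIs in normal cells. Counts of members that moved are given here in place of the reported ones. Of the 2 members higher in macrophages than in neutrophils of RBI-derived cut embryos, 1 was left with TMM factors, counts per 10000 in each cell or at least 10 macrophage gene UMIs, and 0 when thinned. In RBI-derived normal cells 1 in place of 0 was higher as UMIs per cell or with at least 10 UMIs over both sums, in CHT-derived cut cells 1 in place of 3 with counts per 10000 or when thinned, and in CHT-derived normal cells 1 in place of 2 when thinned. Lower in macrophages were 0 in place of 1 in RBI-derived cut as UMIs per cell, 2 with TMM factors and 1 with counts per 10000 in place of 0 in RBI-derived normal, and 0 in place of 1 in CHT-derived normal when thinned or without the top 1% of cells. Higher in cut than normal embryos were, as UMIs per cell, 0 in place of 2 in RBI-derived and 2 in place of 4 in CHT-derived macrophages, where 1 was lower in place of 0, and 2 in place of 1 in RBI-derived neutrophils with counts per 10000, when thinned or with at least 10 UMIs. In cut neutrophils, in place of 2 members lower in RBI-derived than CHT-derived cells, 1 was with TMM factors, counts per 10000, at least 500 UMIs, lyz at least 2%, doublets left out or the top 1% left out, and 0 when thinned or with free RNA subtracted without erythroid-rich cells. In normal neutrophils, 1 in place of 0 was higher in RBI-derived cells with TMM factors, at least 2000 UMIs, free RNA subtracted (barcodes of 10 to 100 UMIs, with or without erythroid-rich cells) or the top 1% left out. Thinning also leaves fewer members with 50 UMIs. The cause of the other changes was not tested. Of 56 shares of cells with a UMI, 45 unthinned values lay outside the interval of the thinned one. No paired analysis was possible because each group is 1 matrix shared by its entries, with no test across samples. The 44 RBI-derived normal macrophages and the low counts of il6 and of tnfa in neutrophils limit what depth can show.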
